A study of Drosophila melanogaster with 84 samples.

Results

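The DIP and dpr genes encode 2 families of Drosophila cell surface proteins of the immunoglobulin superfamily. A DIP protein (Dpr-interacting protein) on one neuron binds particular Dpr proteins (named for the defective proboscis extension response of the first mutant) on another, and these pairings are known from the fly visual system, the mushroom body and the neuromuscular junction to guide the choice of synaptic partner and the survival of some neurons. Clock neurons are the brain cells that run the circadian feedback loop of per and tim and set the daily timing of activity and sleep, and some of them remodel their axon terminals every day. The members described here were every gene in the deposited tables whose symbol begins with DIP- or with dpr and a digit. This rule found 30 of 15801 genes, 9 of them DIP genes and 21 dpr genes. The genes CG31814 and CG45781, which RefSeq lists as DIP-kappa and DIP-lambda, carry other symbols in the tables and were not members.

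The neurons came from adult flies of both sexes in which Clk856-Gal4, a driver active in most but not every clock neuron, labelled the cells with EGFP for sorting into single wells. Flies were held in 12:12 h light:dark cycles (LD) or were then moved to constant darkness and taken at DD3, the third day of darkness, at 6 times of day in each of the 2 light conditions (ZT in LD, CT in DD), with no other treatment. mRNA was tagged at its 3′ end by CEL-Seq2 with 2 rounds of in vitro transcription and counted as unique molecular identifiers (UMIs), each standing for 1 captured molecule, in 36 LD and 48 DD libraries. Libraries of the same time, light condition and number in the title were summed into 28 batches (14 LD, 14 DD), and batches, not cells, were the replicates. The labels do not say that batches were separate groups of flies, so p-values measure the spread between batches. Batch numbers of LD and DD are not shared, and light and batch set cannot be told apart.

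A well was kept with 1000 to 6000 genes and 6000 to 75000 UMIs, which left 5001 of 8060 wells. Total UMIs ran from 677725 to 4259643 per LD library and from 191993 to 3848092 per DD library. Kept wells were sorted into 6 classes by the level of a marker in UMIs per 10000 (TP10K), and none of the members is a gate gene. The classes were 418 Pdf-gated cells (at least 150 TP10K of pigment-dispersing factor), 140 ITP-gated cells (at least 150), 169 Trissin-gated cells (at least 40), 191 CCHa1-gated cells (at least 10), 444 AstC/VGlut-gated cells (at least 50 of AstC and 8 of VGlut) and 220 AstA-gated cells (at least 10). Another 35 wells passed more than 1 gate and were left out, and 3384 passed none. Of the wells that passed a gate, wells in several gates included, between 11 (ITP) and 90 (AstC/VGlut) lay within 1.5 times of it. A class is therefore a range of a marker's level, not a clustered cell type. AstA-gated cells also had mean levels of 38.6 TP10K of AstC, 13.1 of VGlut, 9.99 of Dh31, 6.75 of CNMa, 1.95 of gl and 1.14 of ham. In AstC/VGlut-gated cells these were 147, 32.4, 27, 54.3, 3.09 and 1.75. Rh7 averaged 3.63 in AstA-gated and 0.21 in AstC/VGlut-gated cells. Whether the AstA gate holds more than 1 cell type was not tested. Each class held 4 of 4 neuronal and 6 of 6 clock gene markers at 0.8 TP10K or more. The summed level of the 5 measured glial markers had class medians of 0.182 to 0.824 TP10K, with 1 ITP batch at 27.5, and Gs2 had the highest class means, while repo, the defining glial gene, had class means of 0.00681 to 0.0276. Pdf itself, which free RNA can carry into other wells, averaged 472 TP10K in its own class and 10.4 to 14.4 in the other 5, where 81.7% to 87.1% of cells held a Pdf UMI after thinning to 6000 UMIs and 91.1% to 98.6% before it. All 96 well barcodes recur in 83 or 84 of the 84 libraries, since barcodes mark positions in a plate.

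DIP-alpha has to be set apart first, because its level followed the library and not the class. Over the kept wells of each library it ran from 0.376 to 76 TP10K with a median of 3.11, and libraries of the same batch differed by up to 44.4-fold (median 3.01-fold over 24 batches). For dpr12, the steadiest tested member, the highest such ratio was 1.92. The SD of the log2 level over the 84 libraries was 1.59 for DIP-alpha and 0.97 for DIP-zeta, the next member. The 3 highest libraries, at 76, 65.7 and 64.1, were all LD libraries of the same batch number. DIP-alpha was high there in each class that had cells: in the LD ZT18 batch of that number it read 76.8 in AstC/VGlut-gated, 68.4 in Pdf-gated and 64.8 in AstA-gated cells. Within their own library, cells of the 6 classes had median percentile ranks for DIP-alpha of 38.8 (ITP) to 55.8 (Pdf). DIP-alpha lies at X:3507245-3571649 in the BDGP6.54 annotation and overlaps CG2875 and ppk8 there.

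**Figure D1:**
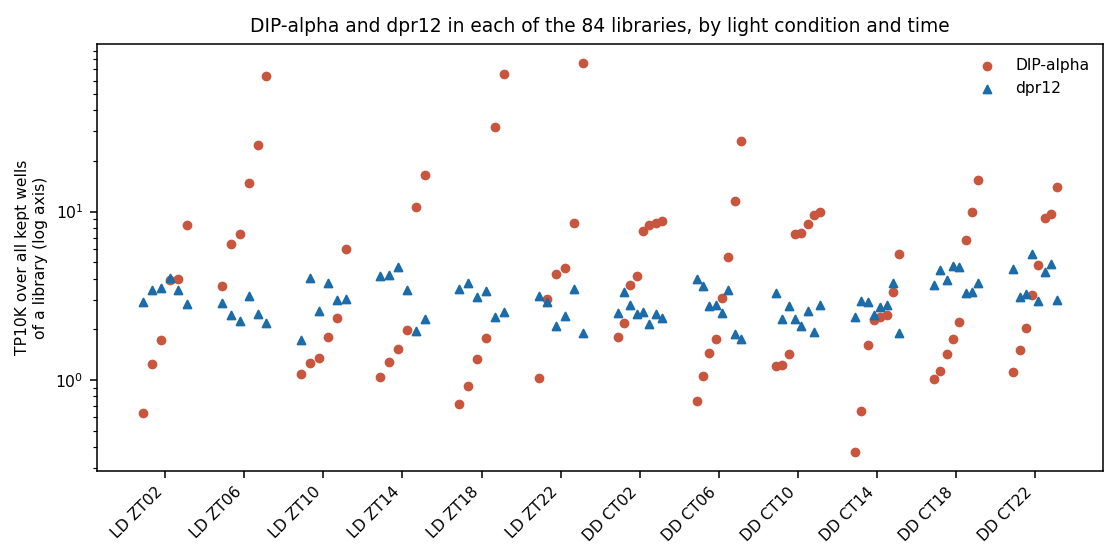
Levels of DIP-alpha (circles) and dpr12 (triangles) over all kept wells of each of the 84 libraries, in TP10K on a log axis, by light condition and time of day. DIP-alpha runs from 0.376 to 76 TP10K and can differ up to 44.4-fold within a batch, while dpr12 stays between 1.73 and 5.6.

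Of the 30 members, 28 had enough counts to be tested between classes. DIP-eta, at no more than 0.0213 TP10K in any class, and DIP-iota, at 0.0589 in Pdf-gated cells and 0.0141 or less elsewhere, did not pass the count filter. Over all kept wells the members held between 125 UMIs (DIP-iota) and 63356 UMIs (DIP-alpha). For cycling transcripts the study set a limit of 0.8 TP10K on the highest level. Here the mean over all batches of a class had to reach 0.8 TP10K to count as presence. A member can thus pass the study's limit at 1 time and not be present, as dpr15 did in Pdf-gated cells of LD (highest time-point mean 1.66). By that limit 8 members were present in Pdf-gated cells, 11 in ITP-gated, 14 in Trissin-gated, 15 in CCHa1-gated, 8 in AstC/VGlut-gated and 15 in AstA-gated cells. These add to 71 pairs of a member and a class. Of the members, 5 (DIP-alpha, dpr7, dpr8, dpr12 and dpr14) were present in 6 of 6 classes and 8 in 0. DIP genes made up 1 to 3 of the members present in a class. A single cell held UMIs of a median of 7 (AstC/VGlut) to 10 (Trissin and CCHa1) members after thinning to 6000 UMIs, and of 12 to 16 in the counts as deposited.

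**Figure D2:**
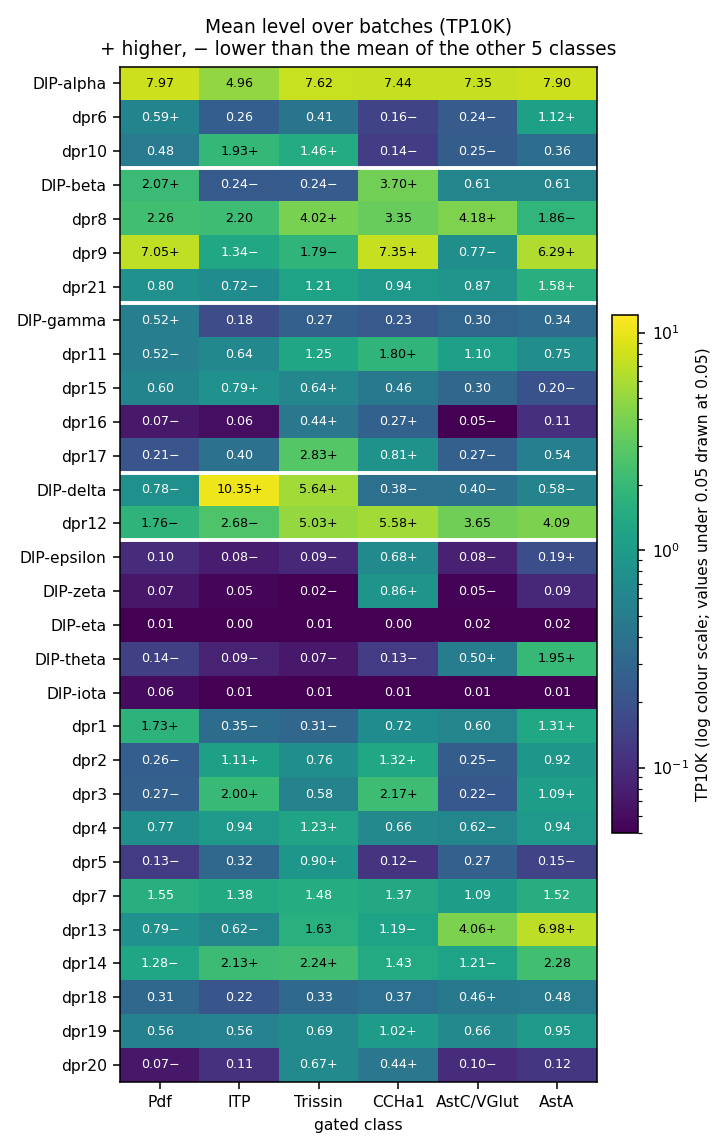
Mean level of each of the 30 members (rows, grouped by binding partners and then by number) in the 6 gated classes (columns), in TP10K on a log colour scale. A plus or minus marks a member called higher or lower than the mean of the other 5 classes; dpr9 reads 7.05, 7.35 and 6.29 in Pdf-, CCHa1- and AstA-gated cells and 0.768 in AstC/VGlut-gated cells, and DIP-delta reads 10.35 in ITP-gated cells.

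The first comparison asked which members each class held above or below the others. Each class was set against the mean of the other 5 within batches by the quasi-likelihood test of edgeR, with p-values adjusted over all 6194 genes tested (Benjamini-Hochberg), and a call needed an adjusted p under 0.05 and a difference of at least 25%. Of the 28 tested members, 26 differed among the classes by the F test (adjusted p under 0.05), beside 37.4% of all genes tested. DIP-alpha (adjusted p = 0.45) and dpr7 (adjusted p = 0.262) did not pass it. In the list of other neuronal surface recognition genes, such as Dscam1, Ten-m, Fas3 and CadN, 23 of 25 tested passed. In Pdf-gated cells 5 members were called higher and 12 lower (all genes 14.5% higher and 5.7% lower), and in ITP-gated cells 6 higher and 8 lower (5.31% and 5.23%). Trissin-gated cells had 11 higher and 6 lower (5.75% and 5.6%), and CCHa1-gated cells 12 higher and 6 lower (6.64% and 8.19%). AstC/VGlut-gated cells had 4 higher and 13 lower (9.36% and 5.62%), and AstA-gated cells 8 higher and 4 lower (7.1% and 9.19%). Of the 28 members, 42.9% were higher in CCHa1-gated cells and 39.3% in Trissin-gated cells, while the shares higher in Pdf-gated (17.9%) and AstC/VGlut-gated cells (14.3%) lay closest to those of all genes. The lower calls ran the other way, at 46.4% in AstC/VGlut-gated and 42.9% in Pdf-gated cells. The median size of a member's difference, on the log2 scale, was 0.51 to 0.83 by class, against 0.22 to 0.28 over all genes. The median signed difference over all genes was 0.13 in the Pdf contrast and between -0.08 and 0.05 in the other 5. Library-size scaling moved that of the AstA contrast from -0.06 to 0.06. The 95 called pairs (46 higher, 49 lower of 168) each kept their direction under library size and under DESeq2, and 81 of them stood without each batch in turn. With fewer batches, 73 stood in LD alone and 61 in DD alone, so a class call given below need not hold in each light condition. The other surface genes gave 41 higher and 30 lower of 150 pairs.

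DIP-delta had the highest F value of any member in the test between classes, though not the largest fold. It is the partner of dpr12, a pair known from the axon lobes of the mushroom body. In ITP-gated cells its level ran from 0.841 to 19.3 TP10K with a median of 10.6 (mean 10.3 ± 5.87 SD, 20 batches), and in Trissin-gated cells from 0.696 to 15.1 with a median of 4.78 (mean 5.64 ± 3.41 SD, 22 batches). In the other 4 classes no batch exceeded 1.97, which the lowest ITP- and Trissin-gated batches overlapped and both medians exceeded. The fitted difference was 11.6-fold in ITP-gated cells (log2 3.53, SE 0.16, adjusted p = 5.51e-43) and 5.55-fold in Trissin-gated cells (log2 2.47, SE 0.17, adjusted p = 4.46e-27). It was called lower in Pdf-, CCHa1-, AstC/VGlut- and AstA-gated cells, at means of 0.777, 0.381, 0.397 and 0.585. The partner dpr12 was present in 6 of 6 classes and had a narrow range: its highest mean, 5.58 ± 2.04 SD in CCHa1-gated cells (1.8 to 9.71, median 6.1, 23 batches), was 1.73-fold above the other classes (log2 0.79, SE 0.10, adjusted p = 4.86e-12). In Trissin-gated cells dpr12 ran from 2.51 to 7.79 with a median of 5.17 (log2 0.60, SE 0.10, adjusted p = 4.83e-07). Pdf-gated cells (0.808 to 3.22, median 1.53) and ITP-gated cells (1.28 to 6.2, median 2.36) were called lower, and these ranges overlapped those of the high classes. After thinning to 6000 UMIs, 66.3% of Trissin-gated and 57.9% of ITP-gated cells held a UMI of both genes (84.6% and 86.4% before), against 14.2% to 17.7% in the other 4 classes (32.3% to 49.5%).

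DIP-beta, known from neurons of the optic lobe, was high in CCHa1-gated cells, where it ran from 0.808 to 7.26 TP10K with a median of 3.19 (mean 3.7 ± 1.66 SD, 23 batches). Pdf-gated cells came next, from 0.145 to 8.75 with a median of 1.38 (mean 2.07 ± 2.05 SD, 26 batches). ITP-gated cells (0 to 1.08, median 0.201) and Trissin-gated cells (0 to 2.09, median 0.158) were lowest, and 8 of 20 ITP batches had no UMI. The differences were 7.09-fold higher in CCHa1-gated cells (log2 2.83, SE 0.22, adjusted p = 3.75e-23), 3.43-fold higher in Pdf-gated cells (log2 1.78, SE 0.21, adjusted p = 3.81e-12), 3.7-fold lower in ITP-gated and 4.16-fold lower in Trissin-gated cells. The Pdf difference was called in LD batches alone (log2 2.40, adjusted p = 1.5e-13) and not in DD batches alone (log2 0.70, adjusted p = 0.182), and the ITP difference was not called in DD alone (adjusted p = 0.0613).

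Its 3 listed partners had 3 different patterns. The gene dpr9 separated the classes into a high and a low set: it ran from 2.93 to 17 TP10K in Pdf-gated cells (median 6.19), from 3.01 to 16.3 in CCHa1-gated cells (median 6.66) and from 2.93 to 16.9 in AstA-gated cells (median 4.97). In AstC/VGlut-gated cells it ran from 0 to 1.92 (median 0.621) and in ITP-gated cells from 0.328 to 2.87 (median 1.32). The batches of these low classes did not overlap those of the 3 high classes, and Trissin-gated cells (0.742 to 4.38, median 1.61) reached into them through 1 batch at 4.38. The class with the lowest level, AstC/VGlut, lay 4.44-fold below the others (log2 -2.15, SE 0.17, adjusted p = 8.03e-23), and Pdf-gated cells 3.1-fold above (log2 1.63, SE 0.12, adjusted p = 1.64e-23). In CCHa1-gated cells DIP-beta and dpr9 were both high, and 67% of these cells held a UMI of each after thinning (85.9% before), against 6.43% (30.7%) of ITP-gated cells. The gene dpr8 was highest in AstC/VGlut-gated cells (0.234 to 7.92, median 4.26, 1.76-fold, adjusted p = 3.02e-09) and Trissin-gated cells (0.84 to 11.3, median 3.83, 1.43-fold, adjusted p = 0.00217), and lower in AstA-gated cells (0.318 to 4.38, median 1.73). Its Trissin difference was not called in DD batches alone. The third, dpr21, was called higher in AstA-gated cells (0.301 to 3.18, median 1.51, 1.6-fold, adjusted p = 4.07e-05) and lower in ITP-gated cells, a call with adjusted p = 0.049 that was lost when any of 15 of the 28 batches was left out (highest adjusted p = 0.106). The AstA call of dpr21 was lost in LD batches alone and with the library as unit.

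**Figure D3:**
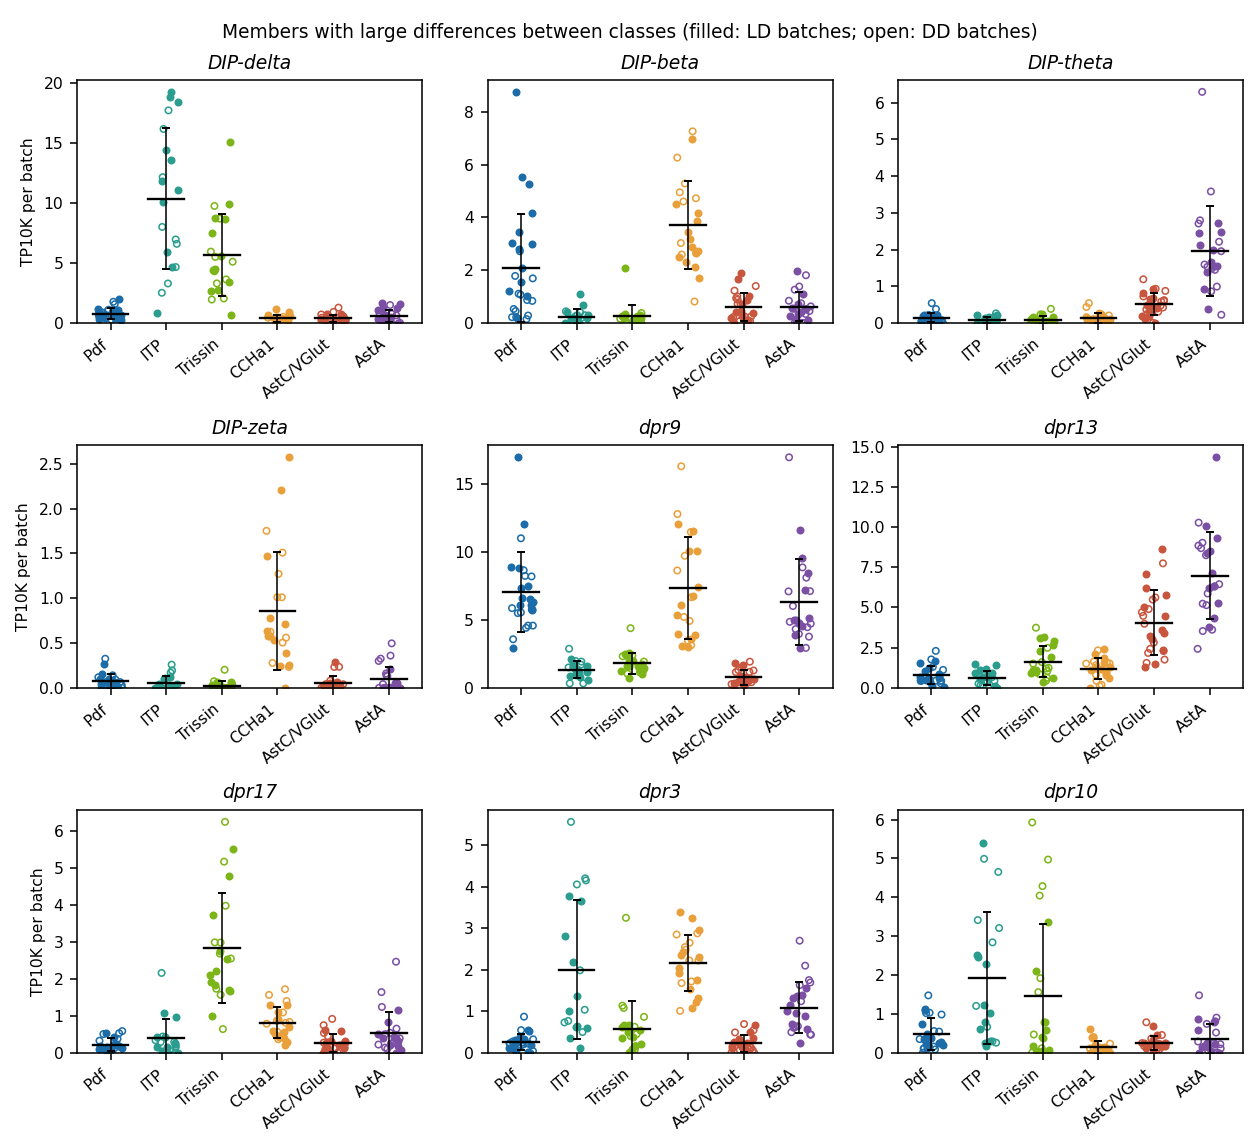
Levels of 9 members in each batch (points, filled for LD and open for DD) of the 6 classes, in TP10K, with the mean (bar) and SD (whiskers) over batches. For dpr9 the Pdf-, CCHa1- and AstA-gated batches, at 2.93 or more, lie above each AstC/VGlut-gated batch, the highest of which is 1.92; DIP-delta reaches 19.3 in ITP-gated and 15.1 in Trissin-gated batches.

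DIP-alpha, whose pairing with dpr10 and dpr6 is known from motor neurons and muscles, had class means of 4.96 (ITP) to 7.97 (Pdf) TP10K and medians of 2.31 (Trissin) to 4.08 (AstA), and no class was called. Its partners did differ. In ITP-gated cells dpr10 ran from 0.177 to 5.41 (median 1.22, 20 batches) and in Trissin-gated cells from 0 to 5.93 (median 0.533, 22 batches), with means of 1.93 ± 1.7 SD and 1.46 ± 1.85 SD. In CCHa1-gated cells no batch exceeded 0.602, and 9 of 23 had no UMI, and that range overlapped the low end of the ITP- and Trissin-gated ones, whose batches differed over the day. It was called 4.21-fold higher in ITP-gated (log2 2.07, SE 0.24, adjusted p = 2.89e-12) and 2.42-fold higher in Trissin-gated cells (log2 1.27, SE 0.25, adjusted p = 3.54e-05), and lower in CCHa1- and AstC/VGlut-gated cells. The Trissin and AstC/VGlut differences were not called in LD batches alone. The neighbouring gene dpr6, 8.09 kb away on chromosome 3L, was high in other classes: it was called higher in AstA-gated cells (0.105 to 2.47, median 1.13; 3.42-fold, adjusted p = 4.52e-12) and Pdf-gated cells (0 to 1.65, median 0.557; 1.74-fold, adjusted p = 0.000793). Its Pdf difference was not called in DD batches alone, and it had means of 0.259 in ITP-gated and 0.412 in Trissin-gated cells. The span of dpr6 holds 4 other measured genes and that of dpr10 holds CG8072, and counting by strand is not given in the sources used here, so that reads of overlapping genes cannot be told apart.

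DIP-gamma, which pairs with dpr11 between colour-sensing photoreceptors and their medulla targets, had a mean over batches under 0.8 TP10K in each class. Its highest class was Pdf, from 0 to 1.53 with a median of 0.344 (26 batches), against class means of 0.182 to 0.339 elsewhere. The ranges overlapped, and the difference was 2.26-fold (log2 1.18, SE 0.23, adjusted p = 1.69e-05). In DD batches alone this difference was not called. Of its partners, dpr17 had the clearest pattern: it ran from 0.64 to 6.24 in Trissin-gated cells (median 2.54, mean 2.83 ± 1.49 SD, 22 batches) and from 0 to 0.585 in Pdf-gated cells (median 0.175), 2 ranges that did not overlap. It lay 7.41-fold above the other classes in Trissin-gated cells (log2 2.89, SE 0.18, adjusted p = 5.27e-31), 1.67-fold above in CCHa1-gated cells, and was lower in Pdf- and AstC/VGlut-gated cells. The CCHa1 difference of dpr17 was not called in LD batches alone, in DD batches alone or with the library as unit. The gene dpr16 was higher in the same 2 classes at low levels (means of 0.435 in Trissin-gated and 0.272 in CCHa1-gated cells, 0.107 or less in the other 4). The highest level of dpr11 was in CCHa1-gated cells (0.258 to 6.04, median 1.31, 2.02-fold, adjusted p = 3.12e-05), and its lowest in Pdf-gated cells (0.139 to 1.49, median 0.422). The fourth, dpr15, which lies 27.4 kb from dpr17 on chromosome 3R, was called lower in AstA-gated cells (0 to 0.655, median 0.22; 2.5-fold, adjusted p = 0.000313) and higher in ITP-gated (1.74-fold, adjusted p = 0.0194) and Trissin-gated cells (1.67-fold, adjusted p = 0.0333). These last calls were lost when any of 3 (ITP) or 8 (Trissin) of the 28 batches was left out, with adjusted p of up to 0.0879 and 0.12.

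Of the DIP genes outside these pairings, DIP-zeta and DIP-epsilon were highest in CCHa1-gated cells and DIP-theta in AstA-gated cells. DIP-zeta ran from 0 to 2.58 TP10K in CCHa1-gated cells (median 0.626, mean 0.857 ± 0.662 SD) and had no batch over 0.496 in the other 5 classes, with a fold of 14.1 (log2 3.82, SE 0.24, adjusted p = 6.7e-30). DIP-epsilon ran from 0 to 1.84 there (median 0.615), 10.6-fold above the others (log2 3.40, SE 0.27, adjusted p = 6.77e-22), and was also called higher in AstA-gated cells (0 to 0.543, median 0.162). In 1 of the 2 LD ZT14 batches DIP-epsilon read 1.13 to 1.31 in Pdf-, ITP-, Trissin- and AstC/VGlut-gated cells, whose medians over batches were 0 to 0.0278, and 0.635 in CCHa1-gated cells. DIP-theta ran from 0.221 to 6.3 in AstA-gated cells (median 1.63, mean 1.95 ± 1.22 SD, 24 batches) and from 0 to 1.19 in AstC/VGlut-gated cells (median 0.484, 26 batches). No batch of the other 4 classes exceeded 0.539. The folds were 11.3 in AstA-gated cells (log2 3.50, SE 0.20, adjusted p = 3.04e-33) and 2.76 in AstC/VGlut-gated cells (log2 1.47, SE 0.21, adjusted p = 1.85e-09).

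The remaining dpr genes fell into a few shapes. The gene dpr13 ran from 2.43 to 14.4 TP10K in AstA-gated cells (median 6.39, 24 batches) and from 1.29 to 8.62 in AstC/VGlut-gated cells (median 3.79, 26 batches), against 0 to 1.47 in ITP-gated (median 0.589) and 0.0758 to 2.3 in Pdf-gated cells (median 0.589). The AstA-gated batches did not overlap the ITP- and Pdf-gated ones. The folds were 4.83 in AstA-gated (log2 2.27, SE 0.14, adjusted p = 1.51e-31) and 2.88 in AstC/VGlut-gated cells (log2 1.53, SE 0.13, adjusted p = 6.85e-20). The genes dpr2 and dpr3 shared a pattern of high CCHa1- and ITP-gated and low Pdf- and AstC/VGlut-gated cells. In CCHa1-gated cells dpr3 ran from 1.01 to 3.39 (median 2.22, 23 batches) and did not overlap Pdf-gated (0 to 0.87, median 0.241) or AstC/VGlut-gated cells (0 to 0.692, median 0.163), with a fold of 4.05 (log2 2.02, SE 0.19, adjusted p = 9.06e-18). For dpr2 the fold in CCHa1-gated cells was 2.24 (0.505 to 3.47, median 1.06, adjusted p = 9.12e-08). In ITP-gated cells the folds were 3.17 for dpr3 and 2.04 for dpr2.

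The gene dpr1, the founder of the family, found in flies that fail to avoid salt, was high in Pdf-gated cells (0.169 to 5.06, median 1.43, 26 batches; 3.54-fold, adjusted p = 5.02e-18) and AstA-gated cells (0 to 3.48, median 1.14; 2.42-fold), and called lower in ITP- and Trissin-gated cells. These ranges overlapped. Trissin-gated cells were the highest class of dpr5 (0 to 3.63, median 0.619; 4.34-fold, adjusted p = 1.46e-13), dpr20 (0 to 3.76, median 0.487; 4.7-fold, adjusted p = 7.19e-11) and dpr4 (0.461 to 3.04, median 1.14; 1.56-fold, adjusted p = 0.00163). They were also called higher for dpr14 (1.41-fold), as were ITP-gated cells (1.39-fold), while Pdf- and AstC/VGlut-gated cells were lower. Of these dpr14 calls, those in ITP- and Pdf-gated cells were lost in DD batches alone and the Trissin one in LD alone. The dpr4 call was lost in DD alone and after thinning. The highest level of dpr19 was in CCHa1-gated cells (0 to 2.59, median 0.902; 1.63-fold, adjusted p = 0.000764). That call was lost in DD batches alone. The single call for dpr18 was in AstC/VGlut-gated cells (0.0776 to 1.76, median 0.352; 1.38-fold, adjusted p = 0.0452), and was lost without any of 11 of the 28 batches (highest adjusted p = 0.117). The class means of dpr7, on chromosome 4, were 1.09 to 1.55 and no class was called.

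As a description over the 30 members and no more, the profiles of log2(mean level + 0.1 TP10K) of ITP- and Trissin-gated cells (Pearson r 0.877) and of AstC/VGlut- and AstA-gated cells (0.871) were most alike, and those of ITP- and CCHa1-gated cells least alike (0.585). The points share libraries and the level of each gene. AstA-gated cells also held AstC and VGlut, the gate genes of AstC/VGlut-gated cells. The members lie on each major arm (8 on 2L, 4 on 2R, 4 on 3L, 8 on 3R, 5 on X and 1 on chromosome 4). Among close neighbours, dpr6 and dpr10 had their highest means in different classes, as did dpr15 and dpr17, while dpr4 and dpr5, 27.5 kb apart on chromosome 3R, were both highest in Trissin-gated cells. The ITP- and Trissin-gated means of dpr15 (0.793 and 0.636 TP10K) lay within the spread over batches.

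The second comparison asked which members changed over the day. A 24 h cosine and sine were fitted to the batches of each class, and a cycler needed an adjusted p under 0.05 over all genes, a highest time-point mean of at least 0.8 TP10K and at least 1.5 times the lowest. In LD, Pdf-gated cells had 3 cyclers of 21 tested members (3.07% of all genes), ITP-gated 1 of 15 (0.595%), CCHa1-gated 1 of 17 (0.322%) and AstC/VGlut-gated cells 1 of 24 (2.26%). Trissin-gated cells had 0 of 17 (0.765%; 8 members at an unadjusted p under 0.05, 3 by DESeq2) and AstA-gated cells 0 of 17 (0.0509%; 1 at an unadjusted p under 0.05, 0 by DESeq2). In DD there was 1 in Trissin-gated cells of 13 (1.18%) and 1 in AstC/VGlut-gated cells of 20 (1.59%). Pdf-gated cells had 0 of 21 in DD (1.37%; 4 at an unadjusted p under 0.05, 1 by DESeq2), ITP-gated 0 of 13 (0.259%; 2 and 1), CCHa1-gated 0 of 18 (0%; 2 and 2) and AstA-gated cells 0 of 14 (0.112%; 1 and 0). A rhythm shared by LD and DD, fitted with the light condition as a covariate, was called in 3 members of Pdf-gated (7.18% of all genes), 3 of ITP-gated (2.46%), 3 of Trissin-gated (4.44%), 2 of CCHa1-gated (1.78%) and 4 of AstC/VGlut-gated cells (7.14%), and in 0 of 18 in AstA-gated cells (0.129%; 1 at an unadjusted p under 0.05, 0 by DESeq2). These are 15 of 111 pairs, against 17 of 124 for the other surface genes. Within a light condition no time point of a class had more than 3 batches.

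**Figure D4:**
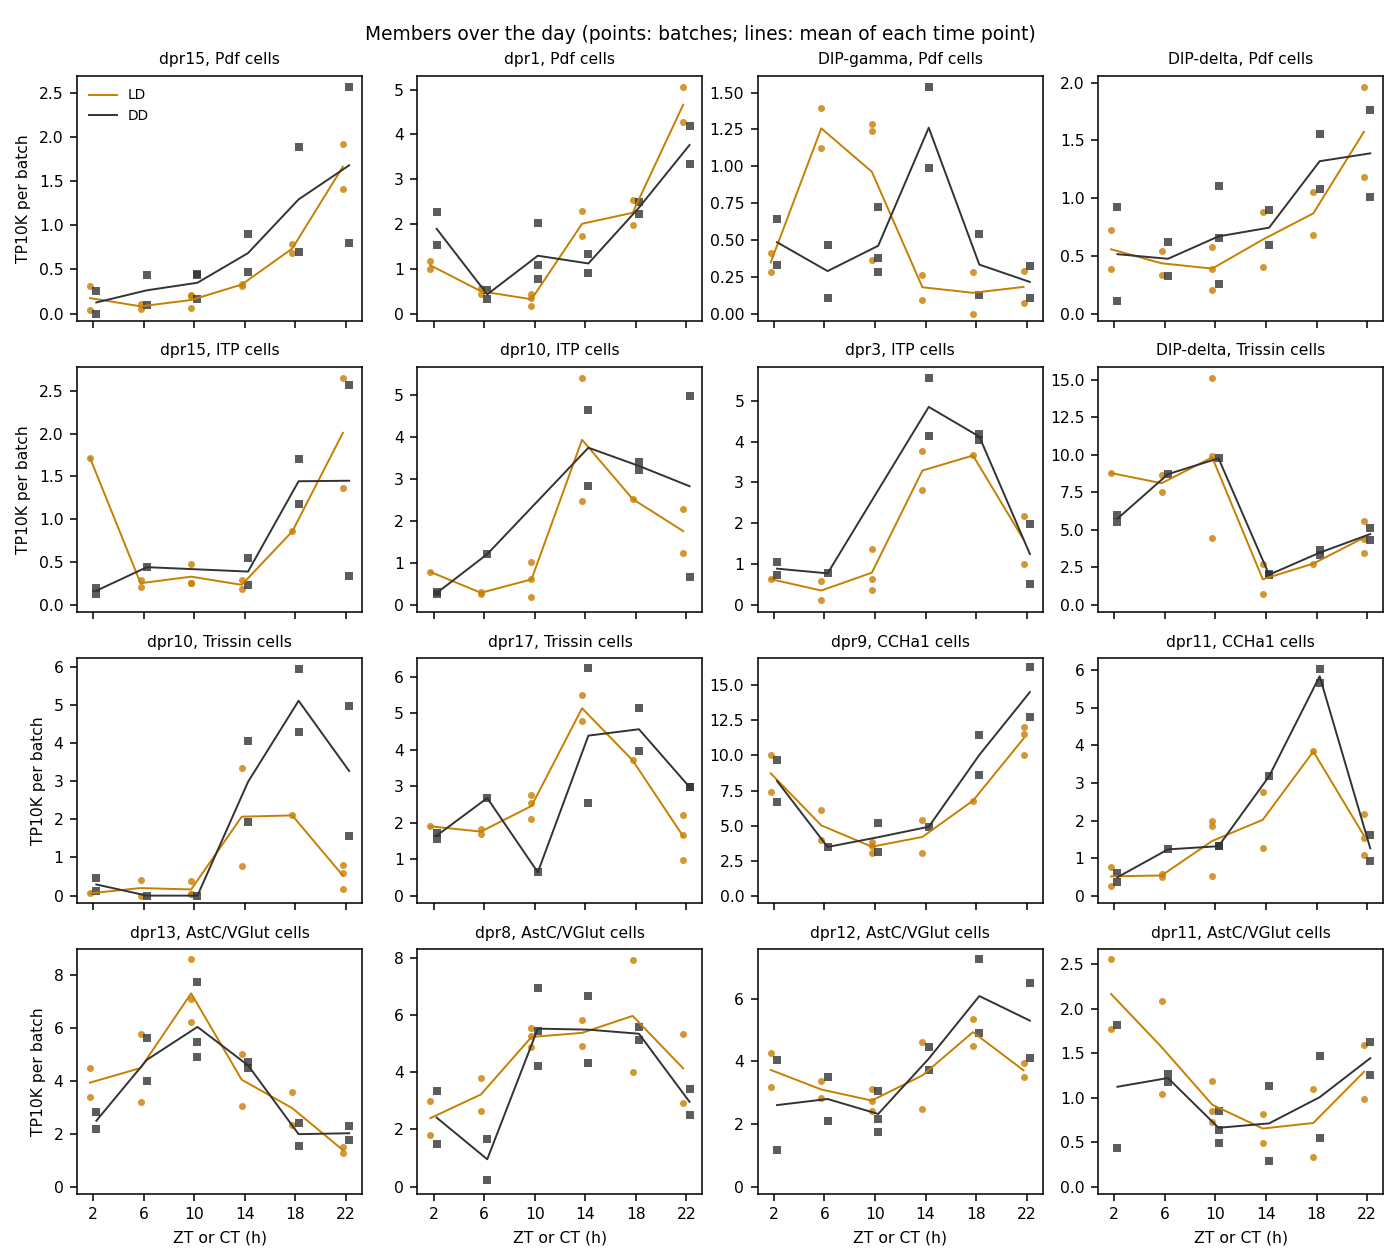
Levels in TP10K of the 16 pairs of member and class that were called in LD, in DD or in both together, by ZT (LD, orange circles) or CT (DD, dark squares) in hours; each point is a batch and each line joins time-point means. In Pdf-gated cells dpr1 and dpr15 are highest at 22 h in both light conditions, and in AstC/VGlut-gated cells dpr13 is highest at 10 h.

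In Pdf-gated cells dpr1 rose late in the night. In LD its 2 batches at ZT22 read 5.06 and 4.27 TP10K, those at ZT18 1.97 and 2.53, and the 3 at ZT10 0.442, 0.344 and 0.169. In DD the CT22 batches read 4.2 and 3.33 and the CT06 batches 0.53 and 0.325. The ZT22 and CT22 batches lay above every other batch of their light condition. The fit gave a peak at 19.7 h in LD (peak to trough 12.7-fold, adjusted p = 0.00501) and at 19.9 h over both light conditions (6.74-fold, adjusted p = 0.000112), and the LD call stood without each batch in turn (highest adjusted p = 0.0192). In DD alone the call was not made (adjusted p = 0.18). The gene dpr15 had the same course: its ZT22 batches read 1.92 and 1.41 and its ZT06 batches 0.051 and 0.112, its CT22 batches 2.56 and 0.797 and its CT02 batches 0.251 and 0. The peak was at 19.6 h in LD (adjusted p = 0.0167, or 0.102 with time as a factor) and 19.2 h over both (adjusted p = 0.000458), and DD alone was not called (adjusted p = 0.197). DIP-delta, low in this class, peaked at 19.9 h over both conditions with time-point means of 0.455 to 1.48 (2.97-fold, adjusted p = 0.016). That call was lost with no filter on low counts (0.0587), with at least 1 cell a unit (0.051) and with the batch number as a block.

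DIP-gamma was called in Pdf-gated cells in LD alone. Its ZT06 batches read 1.12 and 1.39 TP10K and its ZT10 batches 1.29, 1.24 and 0.362, while no batch from ZT14 to ZT22 exceeded 0.288. The peak was at 7.14 h (9.44-fold, adjusted p = 0.0407), and the call was lost without any of 10 of the 13 batches (highest adjusted p = 0.101), with library-size scaling (0.064), with an entropy of at least 5.5 (0.0552) and with time as a factor (0.285). In DD the highest batches were those of CT14, at 1.53 and 0.987. By edgeR's interaction test over 26 batches the rhythm was not called different between LD and DD (adjusted p = 0.534).

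In ITP-gated cells dpr3 and dpr10 were highest in the evening and early night, and dpr15 late in the night. For dpr3 the ZT14 and ZT18 batches read 2.82, 3.76 and 3.66 TP10K and the CT14 and CT18 batches 4.05 to 5.56, while no batch at 2, 6 or 10 h exceeded 1.36. The shared peak was at 16.6 h (8.86-fold, adjusted p = 0.0012). For dpr10 the ZT14 batches read 2.46 and 5.41 and the ZT06 batches 0.251 and 0.311, with a shared peak at 17.1 h (10.8-fold, adjusted p = 0.00875). This dpr10 call was lost with the batch number as a block. By edgeR, neither LD alone (adjusted p = 0.0593) nor DD alone (0.647) was called for dpr10. For dpr15 the ZT22 batches read 2.65 and 1.37 and the ZT14 batches 0.18 and 0.282. Its LD peak was at 22.8 h (8.43-fold, adjusted p = 0.0488), a call lost without any 1 of its 11 batches (highest adjusted p = 0.247), with gates at 1.5 times or an entropy of at least 5.5 (0.0654 each) and with time as a factor (0.299). Its shared peak at 21.3 h (adjusted p = 0.0196) was lost without the ZT22 batch at 2.65 or the CT22 batch at 2.57 (adjusted p of up to 0.109). It was also lost with the batch number as a block. There was no ITP-gated batch of 3 cells at CT10.

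In Trissin-gated cells dpr10 was called in DD and over both conditions. Its CT18 batches read 4.29 and 5.93 TP10K and its CT14 batches 4.04 and 1.92, while the single batches at CT06 (5 cells) and CT10 (4 cells) held no UMI. In LD the ZT14 batches read 0.783 and 3.36 and the 3 ZT10 batches 0.0529, 0.0487 and 0.384. The DD peak was at 18.2 h (adjusted p = 0.0111, or 0.0564 without the CT06 batch) and the shared peak at 17.5 h (adjusted p = 0.00197). DIP-delta, by contrast, was high from morning to ZT10: its batches at 2, 6 and 10 h read 4.46 to 15.1, and those at 14 h 0.696, 2.68, 1.95 and 2.04. Its shared peak was at 5.26 h (3.72-fold, adjusted p = 0.0282), and 3 of the 22 batches, left out singly, raised the adjusted p to as much as 0.0597. The gene dpr17 had its shared peak at 15.7 h (time-point means of 1.73 to 4.77, adjusted p = 0.0219, up to 0.0664 without 1 batch). It was not called with no filter on low counts (0.189), at least 1 cell a unit (0.138) or gates at 1.5 times (0.0539). Nor was it called with the batch number as a block.

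In CCHa1-gated cells dpr9 was highest late at night. The 3 ZT22 batches read 10.02, 11.6 and 12.1 TP10K and the 3 ZT10 batches 3.85, 3.57 and 3.06, and the CT22 batches read 16.3 and 12.8 against 3.47 in the CT06 batch. The ZT22 batches and 1 of the 2 ZT02 batches, at 10.1, lay above the rest of LD. The LD peak was at 22.6 h (2.96-fold, adjusted p = 0.0245; up to 0.146 without 1 of 11 of the 13 batches, and 0.058 to 0.643 with gates at 1.5 times, no filter on low counts, at least 6 cells a unit or time as a factor) and the shared peak at 21.9 h (3.15-fold, adjusted p = 6.84e-05). The shared peak of dpr11 was at 16.1 h: its CT18 batches read 5.65 and 6.04, its ZT18 batch 3.84 and its ZT02 batches 0.258 and 0.769 (7.75-fold, adjusted p = 0.000415).

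In AstC/VGlut-gated cells dpr13 was called in LD, in DD and over both conditions. Its ZT10 batches read 7.11, 8.62 and 6.22 TP10K and its ZT22 batches 1.29 and 1.49, and its CT10 batches read 7.75, 4.9 and 5.49 against 1.55 and 2.42 at CT18. Each ZT10 batch lay above every other LD batch of the class. The peak was at 9.19 h in LD (3.4-fold, adjusted p = 0.0376), 9.5 h in DD (3.13-fold, adjusted p = 0.0192) and 9.35 h in both (3.27-fold, adjusted p = 1.15e-05). Left out singly, 9 of the 13 LD batches and 4 of the 13 DD batches ended these calls (highest adjusted p of 0.108 and 0.0713), and none of 26 ended the shared one. The LD call was also lost under 7 other settings, with adjusted p of 0.0519 (library-size scaling) to 0.172 (time as a factor), and the DD call with time as a factor (0.121). Beyond these, neither the LD nor the DD rhythm was called with the batch number as a block. In this class dpr8 peaked at 14.9 h (2.83-fold, adjusted p = 0.0105), dpr12 at 19.6 h (2.16-fold, adjusted p = 0.0105) and dpr11 at 1.49 h (2.54-fold, adjusted p = 0.0343). The dpr12 call was lost with no filter on low counts (0.126), at least 6 cells a unit (0.0522), wells in several gates kept (0.0583) and gates at 1.5 times (0.0556). With the batch number as a block, the dpr12 and dpr11 calls were both lost. The dpr11 call was lost without any of 14 of the 26 batches (up to 0.102) and under library-size scaling, no filter, at least 6 cells a unit or an entropy of at least 5.5 (0.0586 to 0.176). The difference between this peak of dpr11 and its peak at 16.1 h in CCHa1-gated cells was not tested.

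The third comparison set DD against LD at matched times. With time as a factor, 1 of 22 tested members differed in Pdf-gated cells (3.1% of all genes), which was DIP-beta. Its LD batches ran from 0.17 to 8.75 TP10K with a median of 2.98 and its DD batches from 0.145 to 2.71 with a median of 0.833 (13 each), with means of 3.23 ± 2.3 SD and 0.914 ± 0.763 SD. The ranges overlapped, chiefly through the LD batches of ZT18 and ZT22, none of which exceeded 2.08. The difference was 3.83-fold (log2 -1.94, SE 0.43, adjusted p = 0.0159), with an adjusted p of at most 0.0366 without any 1 batch. The LD time-point means ran from 1.13 at ZT18 to 5.82 at ZT10, and the LD rhythm of DIP-beta was not called (adjusted p = 0.102). DESeq2, no filter on low counts and the library as unit did call it. In DD the adjusted p was 0.797. A rhythm shared by LD and DD was not called in the main fit. It was called with no filter, with the library as unit and with the batch number as a block. The next member was dpr7, whose mean was higher in DD in each of the 6 classes, as were those of dpr12, dpr14, dpr17 and dpr19. A higher mean need not be a higher fitted level. The fitted log2 difference was negative for dpr12 in Pdf- (-0.09), ITP- (-0.25), AstC/VGlut- (-0.18) and AstA-gated cells (-0.16). It was also negative for dpr14 in CCHa1-gated (-0.03) and dpr17 in Trissin-gated cells (-0.15). Fitted differences were positive in each class for dpr7 and dpr19, and negative in each for DIP-alpha, dpr2, dpr8 and dpr13. In Trissin-gated cells dpr8 was 2.19-fold lower in DD (log2 -1.13, adjusted p = 0.0878 by edgeR). DESeq2 and the fit with no filter called it. The values of dpr7 were these. In Pdf-gated cells it ran from 0.379 to 1.43 in LD (median 1.02) and from 1.08 to 4.36 in DD (median 1.96), ranges that overlapped. The difference there was 1.75-fold (log2 0.81, SE 0.23, adjusted p = 0.0556), which edgeR did not call and DESeq2, library-size scaling and the library as unit did. Members differed in none of the other 5 classes by edgeR: 0 of 19 in ITP-gated (0.973%; 5 at an unadjusted p under 0.05, 0 by DESeq2), 0 of 23 in Trissin-gated (0.699%; 5, 1 by DESeq2), 0 of 20 in CCHa1-gated (0.788%; 1, 1 by DESeq2), 0 of 24 in AstC/VGlut-gated (1.39%; 0, 0 by DESeq2) and 0 of 21 in AstA-gated cells (0.46%; 2, 0 by DESeq2). Median log2 differences of the tested members were -0.25 (ITP) to 0.09 (CCHa1). In the test of light by rhythm, 0 of 130 member and class pairs differed (0% of all genes in each of the 6 classes, 6 pairs at an unadjusted p under 0.05, 0 by DESeq2), as did 0 of 132 pairs of the other surface genes. Light and batch set cannot be told apart in each of these comparisons.

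**Figure D5:**
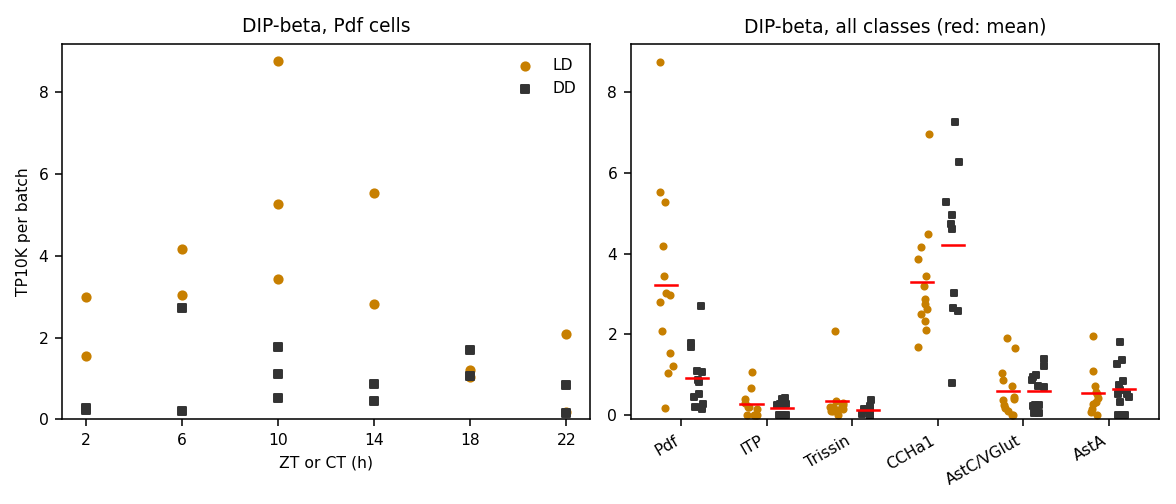
DIP-beta in Pdf-gated cells by time of day (left) and in the 6 classes (right; red bars, means), in TP10K per batch, for LD (orange circles) and DD (dark squares). In Pdf-gated cells the LD batches average 3.23 and the DD batches 0.914 TP10K, and the LD batches of ZT06, ZT10 and ZT14 lie above each DD batch.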

How the data were processed

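The deposited tables hold UMI counts of exonic reads per gene and well, which the authors made from CEL-Seq2 reads with zUMIs and STAR on dm6 (base calls by bcl2fastq 2.20 per the submitters' processing notes); use of strand is not given in the sources used here. Counts were read as deposited, and 92 spike-in entries (2.38% of UMIs) were left out. UMIs were summed per batch and gated class where at least 3 cells were present. Depth was 191993 to 4259643 UMIs a library. Tests used edgeR 4.0.16 (TMM, filterByExpr, quasi-likelihood F test, Benjamini-Hochberg adjustment over all genes tested) in R 4.3.3: class contrasts with the batch as a block, 24 h cosine and sine for rhythms in classes of at least 8 batches and 5 time points, and light with time as a factor. A level is UMIs per 10000 (TP10K). For fits of class contrasts without 1 batch, the dispersion trend of the fit on all batches was kept. DESeq2 1.42.0, library-size scaling, no filter, the library as unit, other cell minimums, the study's entropy limit, stricter gates, thinning to 6000 UMIs and light conditions apart were tried. Scripts were tested on simulated data. Simulated class changes of 2-fold were called in 100% of cases. Simulated LD rhythms in Pdf-gated cells were called in 38% of cases at 2-fold and 96% at 4-fold. Rhythms in the other classes were not simulated, and a count of 0 cyclers need not mean that no rhythm is there. Doublets were not called beyond leaving out wells that passed more than 1 gate. Every member is accounted for, and described in full are those called in their highest class, cyclers and partner pairs; members, lists and tests were chosen with earlier results of these data known. No count column was left unused. Fas1 and alrm, on the fixed lists, were not analysed here.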

Additional observations from a re-analysis of the deposited data

Results flagged for a closer look

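Among 40 levels of a member in a class and light condition of 4 to 10 batches, 5 had 1 batch far above the rest. Each group pools batches of different times of day, and members of a class share their batches. The 5 therefore cannot be set against a chance rate. The LD groups have 11 to 13 batches and were not examined, so that each such group was in DD. In ITP-gated cells dpr12 read 6.2 TP10K in its highest batch and 3.55 in the next. In Trissin-gated cells dpr5 read 3.63 (next 1.87), dpr9 4.38 (next 2.38) and dpr11 3.44 (next 1.28), and in CCHa1-gated cells dpr21 read 2.63 (next 1.49).

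DIP-alpha stood far above the other libraries of its light condition and time in 4 of 12 groups of libraries: 1 DD CT06 library at 26.2 TP10K that has 4 kept wells, and 1 LD library each at ZT06 with 64.1 (next 24.7), at ZT10 with 5.99 (next 2.34) and at ZT22 with 76 (next 8.51).

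Wells outside the gates were not used in the comparisons. Averaged over 28 batches, 4 members were higher there than in each gated class: DIP-alpha at 10.6 TP10K (highest class mean 7.97), DIP-eta at 0.023 (0.0213), dpr14 at 2.42 (2.28) and dpr18 at 0.786 (0.478). CG31814, listed by RefSeq as DIP-kappa, averaged 0.803 TP10K there, and CG45781, listed as DIP-lambda, 0.537.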

How the results depend on the processing

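No called difference changed direction. Leaving out 1 batch at a time gave 43 to 47 pairs of member and class called higher, 42 to 50 called lower, 25 to 26 members called by the F test, 2 to 6 LD rhythms, 1 to 2 DD rhythms, 12 to 16 shared rhythms, 1 to 3 light differences and 0 light interactions. The numbers of rhythms moved most with the processing: LD rhythms were 16 by DESeq2, 16 with no filter on low counts, 15 with each library as a unit, 3 with at least 6 cells a unit, 3 with an entropy of at least 5.5, and 1 with time as a factor. DD rhythms were 7, 6, 4 and 1 under the first 4 of these and 1 with time as a factor, and shared rhythms were 7 with at least 6 cells. Light differences were 4 by DESeq2, 4 with each library as a unit, 3 with library-size scaling and 3 with no filter, which also gave 1 light interaction. With no filter, DIP-alpha, whose level followed the library, was that interaction (AstC/VGlut-gated cells) and the light difference in ITP-gated cells. It was also among the LD rhythms called with no filter in Pdf-, Trissin-, AstC/VGlut- and AstA-gated cells. DD batches alone left 29 pairs called lower. Presence at 0.4 or 1.6 TP10K gave 110 or 39 pairs, and the mean share of cells with a UMI fell from 47.31% to 29.84% on thinning. The batch number as a replicate block gave 1 LD rhythm (dpr1 in Pdf-gated cells), 1 DD rhythm (dpr10 in Trissin-gated cells) and 10 shared rhythms. It ended the shared rhythms of dpr10 and dpr15 in ITP-gated, DIP-delta in Pdf-gated, dpr17 in Trissin-gated and dpr11 and dpr12 in AstC/VGlut-gated cells. Same-numbered batches correlated over 0.1 in 5 of 13 pairs in LD and 2 of 4 in DD. Among pairs with different numbers the counts were 18 of 66 in LD and 11 of 66 in DD. With so few same-numbered pairs, this cannot show whether the numbers pair batches. Through all alternatives in which they were tested and without each batch, 53 of 95 class calls, 1 of 6 LD rhythms (dpr1 in Pdf-gated cells), 0 of 2 DD rhythms, 8 of 15 shared rhythms and the 1 light difference stayed called. The cause was not tested. Some classes could not be fitted with at least 6 cells or with the library as unit. A pair that a setting did not test was not counted as lost there. After thinning, 85 of the 95 class calls were tested. The shared rhythms of dpr15 in Pdf-gated, dpr3 in ITP-gated and dpr10 in Trissin-gated cells were not tested with the library as unit. Those of dpr3 and dpr10 were not tested with at least 6 cells either. Levels under about 0.1 TP10K rest on few UMIs a batch.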

Other observations

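The 2 genes that RefSeq lists as DIP-kappa and DIP-lambda were read from the same wells. CG31814 (DIP-kappa) averaged 0.905 TP10K in AstA-gated cells (0.18 to 2.64, median 0.729, 24 batches) and 0.854 in Trissin-gated cells (0.15 to 2.13, median 0.811, 22 batches), 0.361 in Pdf-gated cells, and 0.0657 to 0.139 in ITP-, CCHa1- and AstC/VGlut-gated cells, where no batch exceeded 0.54. CG45781 (DIP-lambda) had class means of 0.284 to 0.417 and medians of 0.0357 to 0.109, with single batches of up to 4.46.

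The genes whose level over the 84 libraries was most like that of DIP-alpha were listed as a description. The 20 most alike had Pearson correlations of log2 levels of 0.563 to 0.681, led by CG12535 (0.681), hiw (0.661) and tacc (0.659). Of the 17 of them with a known chromosome, 15 lie on X, as DIP-alpha does, against 22.98% of 2063 genes of at least 0.5 TP10K. The points share libraries and depth. The flies were of both sexes, and whether the libraries differed in their share of each sex was not tested.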
